A study of Mus musculus with 6 samples.

Results

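The class I antigen presentation machinery was described across 6 arrays of C3H10T1/2 adipocytes, through 10 listed genes: the heavy chains H2-K1 and H2-D1, the light chain B2m, the peptide transporter genes Tap1 and Tap2, the loading factor Tapbp, the immunoproteasome subunits Psmb8 and Psmb9, the transactivator Nlrc5 and the peptide-trimming enzyme Erap1. A probe set was taken only where the platform annotation gave it a single symbol equal to a listed gene. That rule found 10 probe sets for 9 of the 10 genes, among 33079 probe sets and 21996 named genes in all. H2-D1 has no value here, because its probe set is annotated to a second class I gene as well. The genes were chosen from an earlier look at this same comparison, in which H2-K1 was among the strongest decreases, so their differences are given as a description, and nothing is supported with them.

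C3H10T1/2 is a mesenchymal line from C3H mouse embryos that can be turned into fat cells. All 6 samples are labelled as adipocytes at 9 days of differentiation, and all received an adenovirus at a multiplicity of infection of 50 for 72 h, so every array comes from virus-exposed cells. A U6 promoter in the virus drove either a scrambled hairpin (scramble, 3 biological replicates) or a hairpin against Zc3h10 (Zc3h10 shRNA, 3 biological replicates), a gene that encodes a zinc finger RNA-binding protein. Total RNA was labelled with biotin and read on single-colour Affymetrix arrays, and precision is limited by there being 3 arrays to a group. The labels call the replicates biological without naming separate cultures, so tests measure the spread between these samples.

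Median intensities of the arrays were 15.6 to 16.1, and log2 values correlated across probe sets at 0.992 to 0.994 within groups and 0.985 to 0.988 between them. The Zc3h10 probe set averaged 33.4 ± 6.77 intensity units (SD, n = 3) with scramble and 26.1 ± 3.72 (SD, n = 3) with its own hairpin, a log2 difference of -0.34 that did not pass the threshold (limma, Benjamini-Hochberg adjusted p = 0.301). All 12 measured adipocyte markers were above background, and all 12 fell, with summed intensities of 21854 to 24496 on scramble arrays and 11888 to 12859 on Zc3h10 shRNA arrays. Of 14 measured immune cell markers, 12 lay within background in both groups, the leukocyte antigen gene Ptprc among them, and their summed intensity was 186 to 192 with scramble and 171 to 195 with Zc3h10 shRNA. Within background means a group mean log2 intensity under 4.37, the level under which 1379 odorant and pheromone receptor genes, taken as inactive in fat cells, mostly lay (top of their middle 95%). Of 11 measured progenitor and fibroblast markers, the protease gene Fap (log2 difference 1.63 ± 0.11) and the receptor gene Pdgfrb (0.75 ± 0.12) rose. The receptor gene Pdgfra (-0.66 ± 0.10) fell. Summed intensities of the 11 were 8934 to 10377 with scramble and 9435 to 9875 with Zc3h10 shRNA. The scramble mean of Fap lay within background, so the size of its rise is uncertain. Of 10 muscle, bone and cartilage markers, 5 lay within background in both groups. Of the 10, 3 fell (Ibsp, Bglap and Des, at -1.63, -0.49 and -0.76) and none rose, with sums of 963 to 1141 and 940 to 991. The shares past the threshold were 27.3% of the progenitor and fibroblast markers and 30% of these 10, beside 12.1% of all named genes. Bglap lay within background in both groups, and Ibsp and Des did with Zc3h10 shRNA, so the sizes of these falls are uncertain. Scramble array 3 stood apart in interferon-stimulated genes. It was the highest scramble array for 22 of 29 of them, against 32.1% of all named genes. It was over 1.5 times the next for 8 of 29, against 0.25% of all. Zc3h10 shRNA array 3 was the highest of its group for 16 of the 29, against 30.8% of all named genes, and over 1.5 times the next for 0. In bulk RNA, fewer cells of a type and less RNA per cell cannot be told apart, and the part of the adipocyte, progenitor and bone markers in the values below was not tested.

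Class I molecules display fragments of a cell's own proteins on its surface, where CD8+ T cells and natural killer cells read them. A heavy chain, encoded in mice by H2-K1, H2-D1 and their relatives, folds with the invariant light chain beta-2 microglobulin, B2m. Proteasomes cut proteins into peptides, the Tap1-Tap2 transporter carries these into the endoplasmic reticulum, tapasin (Tapbp) holds empty molecules beside the transporter, and Erap1 trims the peptides to length. Nlrc5 drives transcription of many of these genes together, and interferon-gamma induces them. Fat cells, like nearly all nucleated cells, carry class I molecules.

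In the Zc3h10 shRNA adipocytes the heavy chain H2-K1, the light chain B2m and the transactivator Nlrc5 were lower. The transporter, tapasin, immunoproteasome and trimming genes did not pass the threshold, with Tap1 and Tap2 at 87.3 and 87.2% of the scramble level. Of the 9 measured genes, 3 were past an adjusted p of 0.05 in the limma fit to all probe sets, all of them lower. Among all named genes 12.1% were past it, 6.6% lower and 5.51% higher. All 9 lay above background in a group, whereas 10248 of the 21996 named genes lay within it in both. The shares of all named genes, here and below, are therefore not a like baseline. For 5 of the 9, again all lower, every Zc3h10 shRNA array lay below every scramble array, while 31.9% of all named genes showed no overlap. The median log2 difference of the 9 genes was -0.20, and that of all named genes was 0.01. Differences are given throughout as the mean log2 intensity of Zc3h10 shRNA minus that of scramble, and ± gives its standard error (SE).

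**Figure D1:**
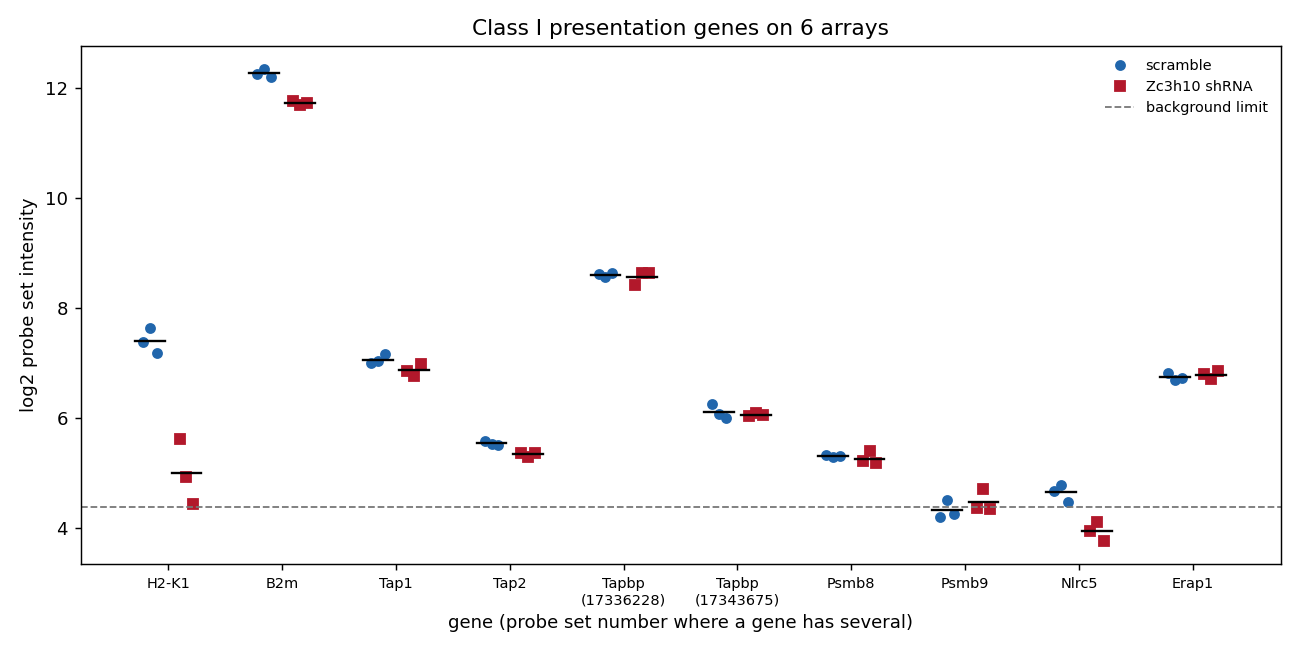
Log2 probe set intensity (vertical axis) of the 10 probe sets of the 9 measured genes (horizontal axis); circles are the 3 scramble arrays, squares the 3 Zc3h10 shRNA arrays, short bars group means and the dashed line the background limit of 4.37. H2-K1, B2m, Tap1, Tap2 and Nlrc5 show no overlap between groups, and all 3 Nlrc5 values with Zc3h10 shRNA lie under the limit.

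H2-K1 encodes the K heavy chain, which binds the peptide and contacts the T cell receptor. Its probe set read 167, 197 and 145 intensity units on scramble arrays 1 to 3 and 49.0, 30.3 and 21.5 on Zc3h10 shRNA arrays 1 to 3. Every Zc3h10 shRNA array was far below the lowest scramble array, and the Zc3h10 shRNA arrays also differed among themselves, the highest being 2.28 times the lowest, against 1.36 times with scramble. The log2 difference was -2.41 ± 0.27 (SE, n = 3 per group), which is 5.30-fold lower, with a 95% interval of 12.2 to 29.1% of the scramble level. With an offset of 32 added to each intensity before log2, the difference was -1.63, so the size depends on how the low Zc3h10 shRNA values are treated. Class I heavy chains are highly similar and highly polymorphic, and transcripts of paralogs can bind the same probes, so the value may not be that of the K gene alone.

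B2m encodes the light chain shared by all classical class I molecules and many class I-like ones. It was among the brightest probe sets, with 4845, 5142 and 4693 on the scramble arrays and 3440, 3307 and 3371 on the Zc3h10 shRNA arrays. The groups were far apart compared with their spread: the highest Zc3h10 shRNA array was only 1.04 times the lowest, against 1.10 times for scramble. The log2 difference was -0.54 ± 0.09 (SE, n = 3 per group), or 69.0% of the scramble level with a 95% interval of 60.2 to 79.0%.

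Nlrc5, the transactivator of class I genes, gave a dim signal. It read 25.5, 27.3 and 22.2 on the scramble arrays and 15.4, 17.3 and 13.5 on the Zc3h10 shRNA arrays. The groups did not overlap, and the Zc3h10 shRNA mean log2 of 3.94 lay within background, so that the size of the difference, -0.70 ± 0.12, is uncertain. It was -0.27 with the offset of 32. Nlrc5 missed the threshold when limma's moderation of the spread was left out (an ordinary t statistic), whereas H2-K1 and B2m were also past it there. All 3 genes were past it without any single array. Without scramble array 3, which is high in interferon-stimulated genes, their log2 differences were -2.51 for H2-K1, -0.57 for B2m and -0.78 for Nlrc5.

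**Figure D2:**
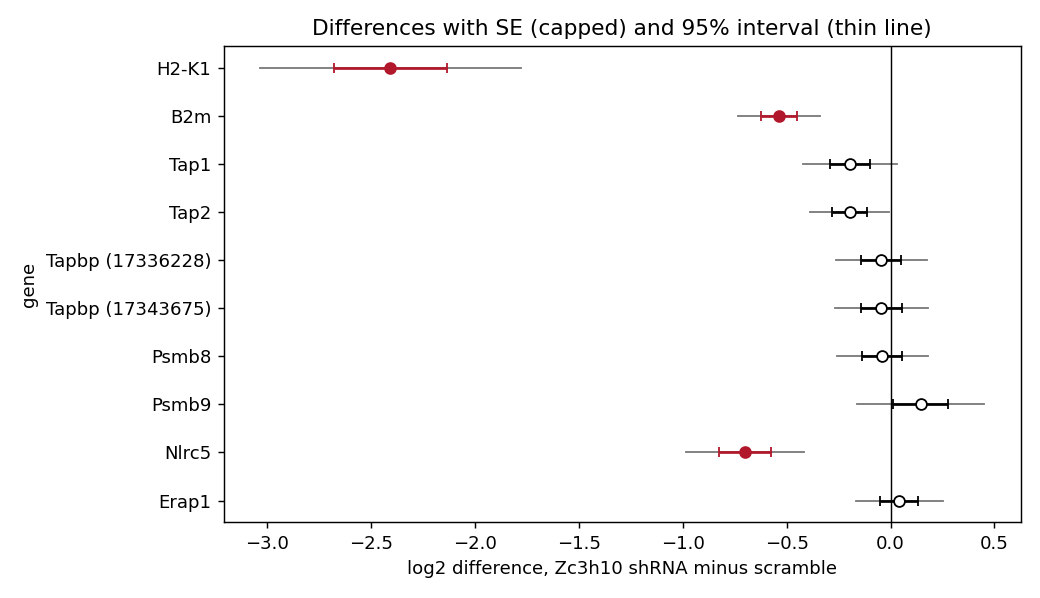
Log2 difference, Zc3h10 shRNA minus scramble (horizontal axis), for each of the 10 probe sets (vertical axis), with its SE as a capped bar and its 95% interval as a thin line; filled points are past an adjusted p of 0.05. H2-K1 stands at -2.41, B2m at -0.54 and Nlrc5 at -0.70, and the other probe sets lie between -0.20 and 0.15.

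The upstream sequences of H2-K1 and B2m are shown because both genes were lower here. That of Tap1 is shown because its gene did not pass the threshold. H2-K1 and B2m are known to share a promoter module that Nlrc5 acts on with the RFX, CREB/ATF and NF-Y factors. Whether this module or Nlrc5 had a part in the differences was not tested. RefSeq sequences (GRCm38.p6, from C57BL/6J mice, not from the C3H background of these cells) cover 250 bases before to 50 after the first listed start, and 8 of the 10 genes had an entry, all but Tap2 and Nlrc5. They lie at chr17:34000298-34000597 (minus strand) for H2-K1, chr2:122147437-122147736 (plus strand) for B2m and chr17:34187306-34187605 (plus strand) for Tap1. H2-K1 has 2 listed starts, so distances in its window depend on the start chosen. Capitals mark matches on either strand to GGGATTCCC (an NF-kB-type site), AANNGAAA (an interferon regulatory factor type), TGACG (a CREB core) and ATTGG (an inverted CCAAT box).
H2-K1: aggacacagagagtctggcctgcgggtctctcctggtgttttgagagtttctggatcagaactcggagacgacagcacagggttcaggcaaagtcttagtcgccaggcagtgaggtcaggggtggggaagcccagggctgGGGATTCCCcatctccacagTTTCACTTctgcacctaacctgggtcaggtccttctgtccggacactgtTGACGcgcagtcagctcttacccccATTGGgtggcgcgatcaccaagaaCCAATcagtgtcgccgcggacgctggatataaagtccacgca
B2m: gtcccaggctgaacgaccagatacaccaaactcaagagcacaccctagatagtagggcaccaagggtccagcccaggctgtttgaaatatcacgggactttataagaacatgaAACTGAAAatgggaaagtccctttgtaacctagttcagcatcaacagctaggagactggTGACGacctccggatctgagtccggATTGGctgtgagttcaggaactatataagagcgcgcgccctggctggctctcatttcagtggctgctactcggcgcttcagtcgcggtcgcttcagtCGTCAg
Tap1: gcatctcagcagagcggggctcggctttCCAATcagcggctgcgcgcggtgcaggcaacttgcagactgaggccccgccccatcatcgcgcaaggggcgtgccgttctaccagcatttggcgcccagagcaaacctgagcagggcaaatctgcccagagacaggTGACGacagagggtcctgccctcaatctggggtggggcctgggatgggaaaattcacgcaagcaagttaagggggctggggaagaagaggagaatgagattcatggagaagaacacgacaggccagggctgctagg

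In H2-K1 and in B2m, TGACG was followed on the same strand by ATTGG after 20 bases, and the same spacing was found in the window of H2-D1, which has no expression value here. A pair of TGACG and ATTGG separated by 15 to 30 bases, a range set after these sequences were read, occurred in 166 of 27025 windows of the same length (0.614%), counting both strands. Tap1, Tapbp, Psmb8, Psmb9 and Erap1 had no such pair in their windows. Sites for RFX were not searched for, so lacking the pair does not mean lacking the module. Tap1 and Psmb9 each held TGACG and ATTGG matches, on opposite strands. GGGATTCCC occurred in H2-K1 and H2-D1 and in 0.37% of all windows. AANNGAAA occurred in H2-K1, H2-D1, B2m and Erap1 and in 24.2% of all windows, TGACG in 21% and ATTGG in 37.9%. The windows of Tap1 and Psmb9, which lie head to head, overlapped by 275 bases. The bone marker Ibsp also had the pair. It fell by 1.63 on the log2 scale (limma, adjusted p = 0.00171), to a mean within background. Among the partner genes described further on, the pair was present for H2-M3, Psma1, Jak1 and H2-Aa, whose log2 differences were 0.36, -0.64, 0.11 and 0.28, of which that of Psma1 passed (limma, adjusted p = 0.00503).

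**Figure D3:**
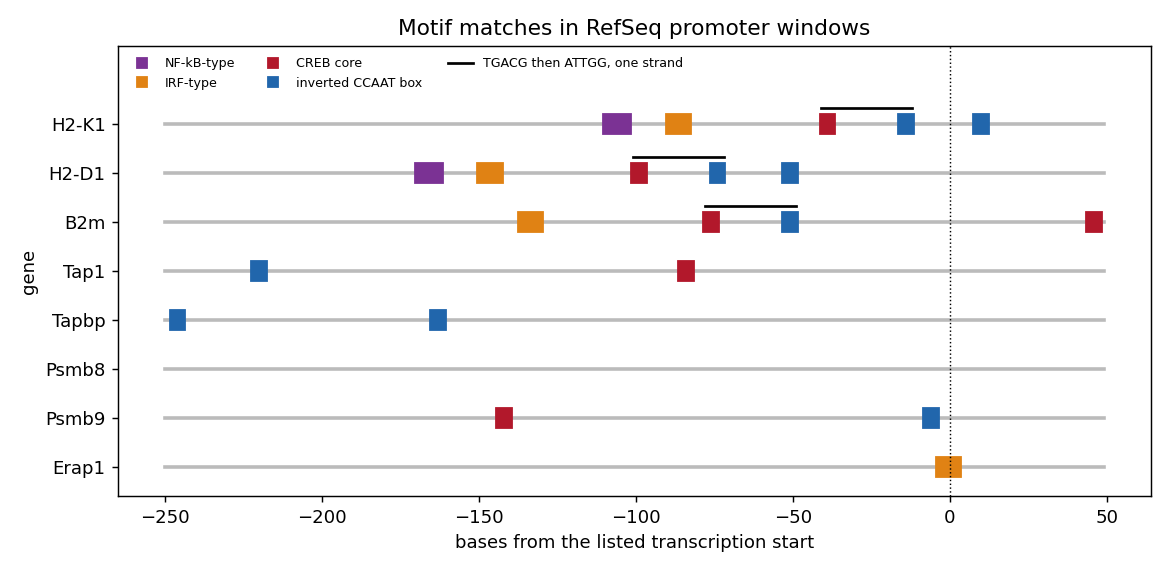
Motif matches along the RefSeq promoter windows of 8 listed genes (vertical axis), by distance in bases from the listed transcription start (horizontal axis); boxes are matches on either strand, and the black line spans TGACG and the ATTGG that follows it on the same strand. H2-K1, H2-D1 and B2m carry that pair, each with 20 bases between its parts. The first of 2 listed starts was used for H2-K1, whose NF-kB-type match begins at -110, against -170 in H2-D1.

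Both chains of the peptide transporter were slightly lower without passing the threshold. Tap1 read 127, 130 and 142 on the scramble arrays and 116, 108 and 125 on the Zc3h10 shRNA arrays. Tap2 read 47.7, 45.7 and 45.3 against 40.9, 39.2 and 40.9. Neither gene's groups overlapped, although for Tap1 the nearest arrays differed by little. The log2 differences were -0.20 ± 0.10 for Tap1 and -0.20 ± 0.08 for Tap2, with 95% intervals of 74.7 to 102% and 76.4 to 99.6% of the scramble level. Tap2 was past the threshold under the offset of 32 (log2 difference -0.11) and under none of the other alternatives.

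Tapbp, the gene of tapasin, had 2 probe sets, and they gave the same picture. The brighter read 392, 375 and 394 with scramble and 340, 394 and 394 with Zc3h10 shRNA, and the dimmer read 76.0, 66.8 and 63.5 against 65.3, 67.9 and 66.4. Their groups overlapped, and the log2 differences were -0.04 ± 0.10 for each. The 95% intervals, 83.2 to 113% and 83.0 to 113% of scramble, include both lower and higher levels, and the sign turned without shRNA replicate 1 for the brighter and without scramble replicate 1 for the dimmer.

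Psmb8 encodes an immunoproteasome subunit that takes the place of Psmb5 in the catalytic core. It read 39.7, 38.8 and 39.2 with scramble and 36.8, 42.2 and 35.9 with Zc3h10 shRNA, a log2 difference of -0.04 ± 0.09 whose sign turned without shRNA replicate 3. Psmb9, which takes the place of Psmb6, read 18.4, 22.7 and 19.0 against 20.5, 25.9 and 20.1, a difference of 0.15 ± 0.13. The groups overlapped for both genes. The scramble mean of Psmb9 and 4 of its 6 arrays lay within background, so a change from this level would be hard to see. Erap1, the trimming peptidase, read 113, 102 and 106 with scramble and 111, 104 and 116 with Zc3h10 shRNA, a difference of 0.04 ± 0.09 with overlapping groups and an interval of 89.0 to 119% of the scramble level.

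Around these genes, 167 partners were grouped into 8 lists by function, of which 145 had a value of their own. Of these, 13 fell and 6 rose (limma, adjusted p under 0.05), a share of 13.1% beside the 12.1% of all named genes, and their median log2 difference of 0.01 was that of all genes. The partners as a whole passed about as often as all genes, and the individual lists are described in the order of the pathway. Shares past the threshold were 16% in other heavy chains, 22.2% in loading and trimming, 0% in immunoproteasome partners and 29.4% in the constitutive proteasome. They were 0% in transcriptional regulators, 9.09% in interferon receptors and signalling, 20% in class II and 6.9% in interferon-stimulated genes. The lists are small, and no list was tested as a set.

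Among other class I and class I-like heavy chains, 3 of 25 measured genes fell and 1 rose, with a median of -0.01 and with 15 of the 25 within background in both groups. H2-Q4, a nonclassical heavy chain, read 55.9, 51.9 and 55.8 with scramble and 34.5, 23.9 and 32.5 with Zc3h10 shRNA, a log2 difference of -0.86 ± 0.14 (limma, adjusted p = 0.00777). As with H2-K1, its paralogs can share its probes. Hfe, which pairs with beta-2 microglobulin and takes part in iron sensing, was at -0.76 ± 0.13, with 48.3, 54.8 and 51.1 against 25.9, 30.0 and 35.7. Fcgrt, the heavy chain of the neonatal Fc receptor that recycles immunoglobulin G and albumin, also pairs with beta-2 microglobulin, and it was at -0.60 ± 0.11 (adjusted p = 0.0101), with 1246, 1389 and 1283 against 964, 832 and 791. The groups did not overlap for any of the 3 genes, which all missed the threshold with the ordinary t statistic.

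Mr1, the class I-like molecule that presents microbial vitamin metabolites, went the other way. It read 446, 364 and 459 with scramble and 617, 574 and 666 with Zc3h10 shRNA, all Zc3h10 shRNA arrays above all scramble arrays. The log2 difference was 0.55 ± 0.12 (limma, adjusted p = 0.0223), and it no longer passed without scramble replicate 2 (adjusted p = 0.0672), shRNA replicate 1 (0.0604) or shRNA replicate 3 (0.0864), or with the ordinary t statistic (0.0974). H2-T23, which presents leader peptides of other class I chains to natural killer cells, missed the threshold at 0.14 ± 0.15 (limma, adjusted p = 0.668).

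**Figure D4:**
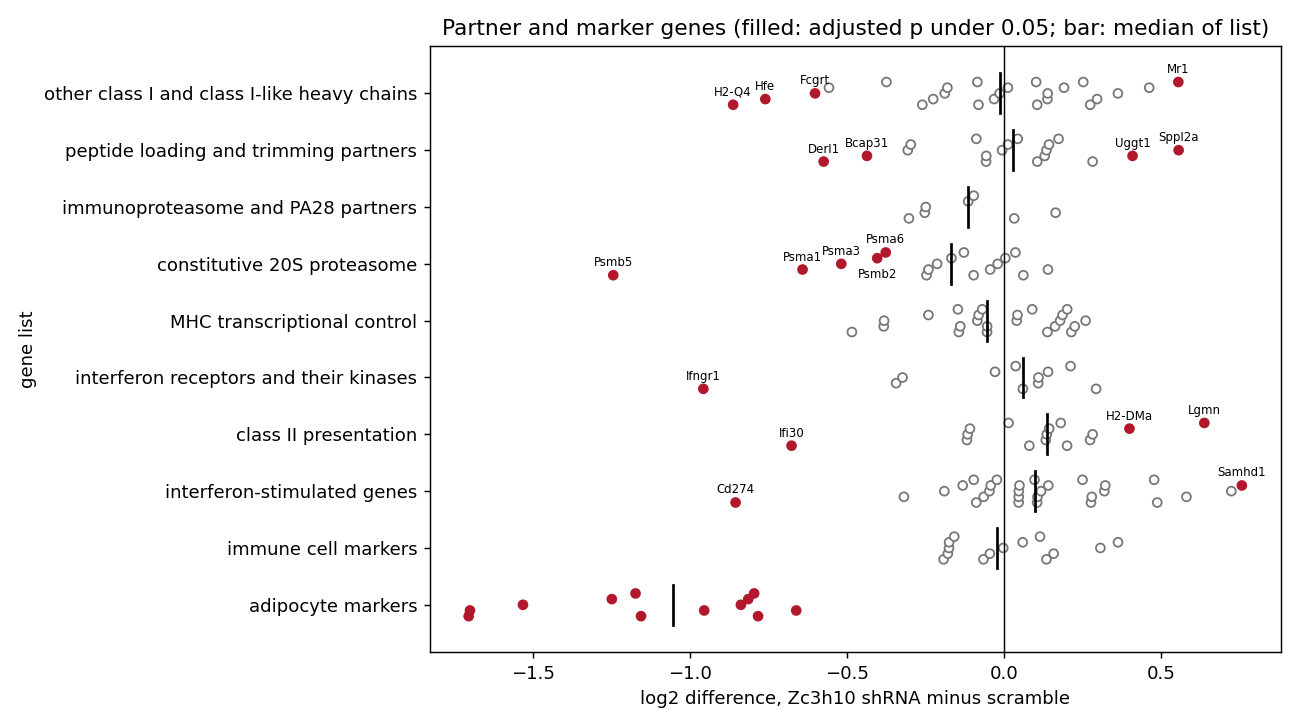
Log2 difference, Zc3h10 shRNA minus scramble (horizontal axis), of each measured gene in the 8 partner lists and 2 marker lists (vertical axis); filled points passed an adjusted p of 0.05, and vertical bars are list medians. All 12 adipocyte markers and none of 14 immune cell markers passed, while each partner list holds 0 to 5 genes that did.

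In the loading and trimming list, 2 of 18 measured genes fell and 2 rose, with a median of 0.03. Derl1, which helps move misfolded proteins out of the endoplasmic reticulum, was at -0.57 ± 0.10 (limma, adjusted p = 0.00889), and Bcap31, a sorting chaperone of that compartment, at -0.44 ± 0.09 (adjusted p = 0.0205). The intramembrane protease gene Sppl2a was at 0.56 ± 0.09 (adjusted p = 0.00827), and Uggt1, which tags misfolded glycoproteins for another round of folding, at 0.41 ± 0.08 (adjusted p = 0.0192). Bcap31 and Uggt1 missed the threshold without replicate 2 or 3 of either group (adjusted p up to 0.0814 and 0.0754). The chaperones that handle newly made heavy chains did not pass: calreticulin, Calr, was at 0.13 ± 0.08, calnexin, Canx, at 0.01 ± 0.09 and the disulphide isomerase gene Pdia3 at 0.17 ± 0.11. Calr passed under the offset of 32 alone among the alternatives. The sign of Canx turned with median centring and without scramble replicate 2 or shRNA replicate 1.

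None of the 7 other genes of the immunoproteasome and its PA28 activators passed in the limma fit, with 3 at an unadjusted p under 0.05, all lower, where 25.2% of all named genes were at such a p, and a median of -0.11. The ordinary t statistic called 1 of them as lower, Psme4, and the offset of 32, the filter at the median and the intensity trend each called 2, Psme3 and Psme4. Psmb10, the immunoproteasome subunit that replaces Psmb7, read 107, 107 and 114 with scramble and 102, 133 and 136 with Zc3h10 shRNA, and was at 0.16 ± 0.12 with overlapping groups. The PA28 genes Psme1 and Psme2 were at -0.25 ± 0.09 and -0.10 ± 0.28. Psme2 varied most between replicates, with 89.6, 131 and 56.0 on the Zc3h10 shRNA arrays, and its sign turned without shRNA replicate 3. Psme3 and the proteasome activator gene Psme4 were at -0.30 ± 0.09 and -0.25 ± 0.08, and the proteasome maturation factor Pomp and the inhibitor gene Psmf1 at 0.03 ± 0.11 and -0.11 ± 0.09.

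In the constitutive proteasome, 5 of 17 measured genes fell, where 6.6% of all named genes fell, with none higher and a median of -0.17. Of the 17, 16 lay above background in a group, a larger share than of all named genes. Psmb5, the catalytic subunit that Psmb8 replaces, read 290, 314 and 292 with scramble and 141, 125 and 114 with Zc3h10 shRNA. The groups were far apart, and the log2 difference was -1.25 ± 0.10, or 2.37-fold lower (limma, adjusted p = 0.000697). The other catalytic subunits did not pass, with Psmb6 at -0.25 ± 0.10 (adjusted p = 0.197) and Psmb7 at -0.24 ± 0.11 (adjusted p = 0.247). Structural subunits of the core that passed were Psma1 (-0.64 ± 0.10), Psma3 (-0.52 ± 0.11), Psma6 (-0.38 ± 0.09) and Psmb2 (-0.40 ± 0.10). The count of 5 was 2 when any single array other than shRNA replicate 1 was left out and with the ordinary t statistic, 3 with quantile normalization and 6 with the offset of 32. Psmb5 passed under every alternative that was run. Whether Psmb5 and Psmb8 differ in response was not tested.

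Of 23 measured transcriptional regulators of the class I and class II genes, none passed in the limma fit, with 5 at an unadjusted p under 0.05, below the 25.2% of all named genes, and a median of -0.05. The ordinary t statistic called 0 of them, the offset of 32 called 2 as higher, and the intensity trend, the filter at the median and leaving out scramble replicate 1 each called 1 as lower. Rfx5, the DNA-binding subunit of the factor complex on the X box, was at 0.04 ± 0.10 (adjusted p = 0.871), and its sign turned without shRNA replicate 3. Ciita, the class II counterpart of Nlrc5, was at -0.09 ± 0.11 with a dim signal, and its sign turned without shRNA replicate 1. Irf1, an interferon-induced activator of class I promoters, read 75.6, 77.1 and 85.7 with scramble and 82.9, 91.2 and 97.1 with Zc3h10 shRNA, and was at 0.19 ± 0.10 (adjusted p = 0.350).

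Of 11 interferon receptor and signalling genes, 1 fell and none rose, with a median of 0.06. That gene was Ifngr1, the ligand-binding chain of the interferon-gamma receptor, with 710, 793 and 729 on the scramble arrays and 417, 362 and 371 on the Zc3h10 shRNA arrays. No Zc3h10 shRNA array came near the scramble range, and the log2 difference was -0.96 ± 0.10, or 1.94-fold lower (limma, adjusted p = 0.00117). It passed under every alternative that was run. The second chain, Ifngr2, missed the threshold at -0.34 ± 0.12 (adjusted p = 0.137), and the kinase genes Jak1 and Jak2 were at 0.11 ± 0.09 and 0.06 ± 0.09.

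Among 29 interferon-stimulated genes, 1 fell and 1 rose, with a median of 0.10. Without scramble array 3, 1 fell and 4 rose, and the same counts were found when limma's prior followed intensity (the intensity trend). Ifit1, an interferon-induced gene of antiviral defence, showed how that array differed, with 73.1, 73.8 and 232 on the scramble arrays and 90.3, 131 and 132 on the Zc3h10 shRNA arrays. Cd274, which encodes the T cell inhibitory ligand PD-L1, read 59.9, 73.8 and 52.9 with scramble and 36.2, 30.0 and 36.3 with Zc3h10 shRNA, a log2 difference of -0.86 ± 0.14 (limma, adjusted p = 0.00809). Samhd1, a nucleotide-degrading enzyme that restricts viruses, rose by 0.76 ± 0.12 (adjusted p = 0.00590). Both missed the threshold with the ordinary t statistic, which called none of the list, while 2 genes rose and 1 fell with quantile normalization, cyclic loess, either filter on dim probe sets, and without shRNA replicate 1.

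For the class II pathway, 9 of 15 measured genes lay within background in both groups, among them the chains H2-Aa and H2-Ab1, and 2 rose and 1 fell. The genes that passed work in the lysosome or in peptide exchange. The lysosomal protease legumain, Lgmn, was at 0.64 ± 0.10 (limma, adjusted p = 0.00569), the thiol reductase gene Ifi30 at -0.68 ± 0.11 (adjusted p = 0.00726) and the exchange factor chain H2-DMa at 0.40 ± 0.09 (adjusted p = 0.0329). Ifi30 missed the threshold with the ordinary t statistic (adjusted p = 0.0520). The call for H2-DMa was lost there (0.0585) and without any single array (adjusted p 0.0555 to 0.113).

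Over the 6 arrays, the genes whose log2 values followed those of H2-K1 most closely were Rpa3, Pmvk, Snora61, Uqcrfs1 and Itga6, with Pearson correlations of 0.996 to 0.999. Each was lower with Zc3h10 shRNA, by log2 differences of -0.70 to -1.43. The correlation with H2-K1 was 0.97 for B2m, 0.95 for Nlrc5, 0.92 for Tap2 and 0.66 for Tap1. It was 0.26 for Psmb8, 0.02 for Tapbp, -0.37 for Psmb9 and -0.38 for Erap1. By this correlation B2m, Nlrc5, Tap2 and Tap1 ranked 327, 731, 1192 and 3994 among the named genes. All these values rest on the same 6 arrays and follow mainly the separation of the 2 groups, so they describe the arrays and carry no test.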

How the data were processed

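The authors deposited linear intensities, 1 per probe set and array, with near-equal medians. Scaling across arrays before deposit would give such medians, but they do not by themselves show that it was done. The submitters' processing notes name Partek 6.6 and Affymetrix Expression Console. Not given in the sources used here: how background was removed and probes were summarised, which bears most on dim probe sets.

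Log2 was taken with no pseudocount. All 33079 probe sets were fitted in R 4.3.3 by limma 3.58.1 (lmFit, then eBayes; two-sided; 4 residual degrees of freedom) over the 3 Zc3h10 shRNA and 3 scramble arrays, with Benjamini-Hochberg adjustment over all probe sets and a threshold of 0.05, the 5% of the series' design text. Symbols came from the platform annotation: 23043 probe sets had 1 symbol, 1740 had several and were not named, and 8296 had none. For counts of genes, the probe set with the highest mean stood for a gene. The code was tested on simulated data.

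The listed genes, the partner lists and the rule for naming genes were chosen with earlier results of these data known. Named are all listed genes, up to 4 passing genes per partner list with the smallest p, all 7 partners of the immunoproteasome, a fixed set (Zc3h10, Irf1, Rfx5, Ciita, Psmb5, Psmb6, Psmb7, H2-T23, Calr, Canx and Pdia3; another is not reported here), and the 5 genes most correlated with H2-K1. Psmb2, Ifngr2, Jak1, Jak2, H2-M3, H2-Aa, H2-Ab1, Ptprc, Ifit1, the named markers and the neighbours of H2-K1 are outside that rule and were named after their values were seen. That scramble array 3 is high in interferon-stimulated genes was also looked for after values were seen. Alternatives were other scalings, an offset, filters on dim probe sets, an intensity trend, an ordinary t statistic, a replicate block, and each array left out.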

Additional observations from a re-analysis of the deposited data

How the results depend on the processing

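H2-K1, B2m and Nlrc5 were the listed genes past the threshold under 13 of the 15 alternatives that refit the model; the offset of 32 added Tap2, and the ordinary t statistic left H2-K1 and B2m. All 3 kept their sign under all 15, with log2 differences of -2.72 to -1.63, -0.57 to -0.50 and -0.79 to -0.27. With the ordinary t statistic, 1972 probe sets and 11 partner genes passed, against 3238 and 19. Leaving out 1 array at a time gave 1807 to 2578 probe sets, 12 to 19 partner genes, and 3 listed genes each time. The fewest partner genes passed without scramble replicate 2 and without shRNA replicate 3, 12 in each case. With the replicate number as a block, 2455 probe sets, 14 partner genes and the same 3 listed genes passed. The deviations of same-numbered arrays from their group means correlated at 0.0845, -0.00464 and 0.0425. Those of differently numbered arrays correlated at -0.0925 to 0.0613. Such small correlations cannot settle whether the numbers pair the arrays, and the labels do not say. Under the block the adjusted p was 0.0592 for Bcap31, 0.0582 for Uggt1, 0.0556 for Psma3, 0.0769 for Psma6 and 0.0839 for H2-DMa, all above 0.05, and 2 constitutive proteasome genes passed. Among named partners that had not passed, the sign turned for Canx with median centring (-0.0088) and when single arrays were left out for Canx (-0.017 to 0.046), Psme2 (-0.39 to 0.22), Pomp (-0.043 to 0.094), Rfx5 (-0.033 to 0.11) and Ciita (-0.19 to 0.0090). Psme3 passed under 3 alternatives and Psme4 under 4, both with the offset of 32 (-0.27 and -0.24). Of 525 such values for named partners and Zc3h10, 43 lost and 8 gained the threshold, and 7 changed sign. Signal over background limits Psmb9, Nlrc5 and most nonclassical and class II chains.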

Other observations

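Besides the probe sets with a single symbol, 6 were annotated to several class I genes each and were named in no comparison. The probe set that includes H2-D1 lay within background in both groups, with mean log2 values of 3.34 and 3.29. It covers a second class I gene too, and class I genes are highly polymorphic. Whether H2-D1 is expressed in these C3H cells cannot be told from this level. A probe set annotated to 3 class I genes read 52.9, 53.7 and 55.2 with scramble and 19.8, 22.4 and 16.4 with Zc3h10 shRNA, a log2 difference of -1.47 ± 0.12 (limma, adjusted p = 0.000697), and its Zc3h10 shRNA mean of 4.28 lay within background. It was singled out after its values were seen. The other 5 did not pass, with differences of -0.62 to 0.38.

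The 10 measured genes nearest to H2-K1 in RefSeq order, 5 on either side, had log2 differences of -0.41 to 0.23. Of these, 0 passed the threshold in the limma fit, beside 12.1% of all named genes. With 10 genes that count is close to the share, and whether the region changed was not tested. The 10 include Ring1, a Polycomb gene, at -0.04 ± 0.11, H2-Ke6 at -0.41 ± 0.12 and H2-K2, a close relative of H2-K1 that can share its probes, at -0.30 ± 0.17. The groups did not overlap for H2-Ke6, which was lower (limma, adjusted p = 0.0705). Nor did they for Vps52, which was higher at 0.23 ± 0.11 (limma, adjusted p = 0.263).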
